A study of Mus musculus with 3 samples.

Results

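The 60 genes described here encode proteins that move a mouse cell through the cell cycle and divide it: E2F factors and pocket proteins, cyclins and their kinases and inhibitors, replication factors, and the kinases, motors and scaffolds of mitosis. They were taken from a fixed list by symbol in the GENCODE M1 annotation of mouse genome build mm9, all 60 were found, and they are 60 of the 22342 protein-coding genes on chromosomes with a peak. CHART-Seq captures an RNA with short biotinylated oligonucleotides and sequences the DNA cross-linked to it, and here the RNA was *Dali*, a long non-coding RNA. The cells were N2A, an established mouse neuroblastoma line, grown in serum with no treatment. The labels name 3 *Dali* pull-downs (n2a-Dali-R1, n2a-Dali-R2 and n2a-Dali-R3), each from about 300000000 cells and 810 pmol of capture oligonucleotides, with no genotype or treatment that sets them apart. By the study's methods they differ in the cocktail, since 2 cocktails held 5 oligonucleotides each and 1 held all 10, and the labels do not say which pull-down received which. The authors pooled them into 1 list of 1427 peaks with 1 score each, so the depth is unknown, no value has a spread between pull-downs, and nothing below was tested across samples. For each gene, the nearest peak is the one whose midpoint lies closest to any of its protein-coding transcriptional start sites (TSSs), and upstream and downstream follow the direction of transcription.

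Passage from G1 to S phase is driven by cyclin-dependent kinases (CDKs) that release E2F transcription factors from the pocket proteins of the retinoblastoma family, and E2F factors then induce genes for DNA replication. Genes needed for mitosis are induced later, in G2, often through a CHR element (cell cycle genes homology region) in promoters that also hold CCAAT boxes bound by NF-Y. Such genes are active in dividing cells, and their silencing accompanies exit from the cell cycle as neurons form.

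*Dali* peaks lay at the promoters of 5 of the 60 genes: *Cdc6*, *Hmgb2*, *Dlgap5*, *Nusap1* and *Mcm6*. Another 5, *Aurkb*, *Kif2c*, *Cdk2*, *E2f2* and *Cdkn1c*, had a peak from 1 to 10 kb away. A peak midpoint lay within 1 kb of a TSS for 5 genes (8.33%), against 1.88% of all protein-coding genes, and within 10 kb for 10 genes (16.7%), against 3.68%. Within 100 kb the count was 22 (36.7%), against 18.4%. The median distance to the nearest peak was 286.4 kb for the 60 genes (quartiles 45.9 and 588.7 kb) and 493.6 kb for all protein-coding genes, and 14 of the 60 (23.3%) had no peak within 1 Mb, against 33% of all. The study names 6 of the 60, so the list is not independent of these peaks. For *Hmgb2*, *E2f2*, *Dlgap5*, *Kif2c* and *Kif11* the study reports binding, and for *Ube2c* it lists primers alone. Without those 6, 3 of 54 genes (5.56%) had a peak within 1 kb, 6 (11.1%) within 10 kb and 17 (31.5%) within 100 kb, at a median distance of 305.7 kb. With only the 714 peaks whose score was at or above the median of the list, 2 of the 60 genes (3.33%) had a peak within 1 kb, against 1.03% of all, 3 (5%) within 10 kb, against 1.92%, and 11 (18.3%) within 100 kb, against 10.5%.

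**Figure D1:**
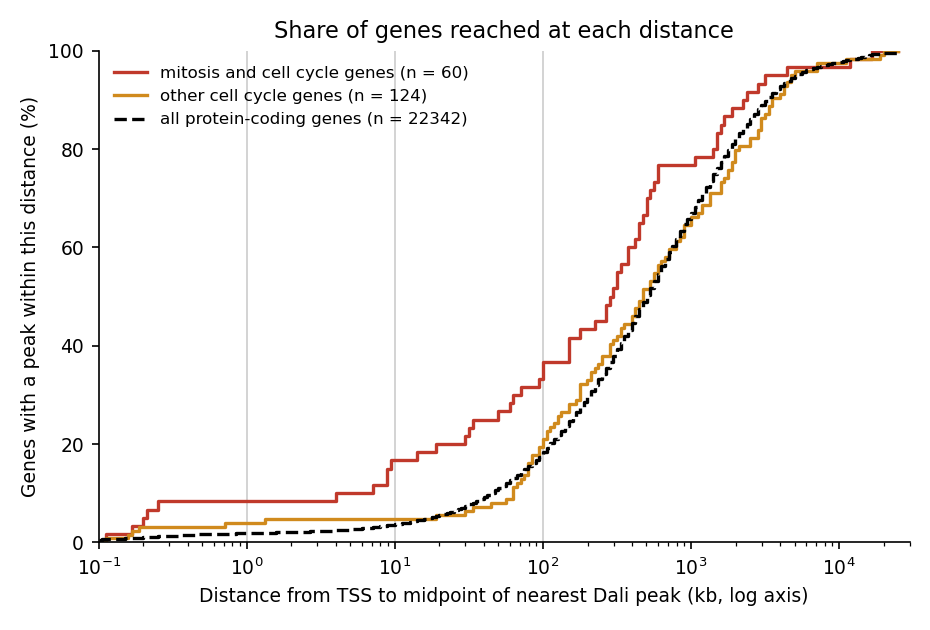
Percentage of genes (vertical axis) with a peak midpoint within a given distance of a TSS (horizontal axis, kb, log scale) for the 60 mitosis and cell cycle genes, 124 other cell cycle genes and all 22342 protein-coding genes. At 10 kb the 60 genes stand at 16.7%, the other cell cycle genes at 4.84% and all genes at 3.68%.

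Most of the 60 genes start in promoters rich in GC and CpG. From 250 bases before to 50 bases after the outermost TSS, 48 of 60 promoters (80%) had at least 50% GC and an observed over expected CpG ratio of at least 0.6, against 42.6% of all protein-coding genes. Among the 9527 protein-coding genes with such a promoter, 2.96% had a peak within 1 kb, 5.19% within 10 kb and 22.9% within 100 kb. For the 48 cell cycle genes with such a promoter the shares were 8.33%, 16.7% and 37.5%.

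The 5 promoter peaks each spanned the TSS and overlapped the 5′ UTR of the gene itself. The upstream sequences of *Cdc6*, *Hmgb2* and *Mcm6* are shown so that the words they hold can be compared. Each runs 5′ to 3′ on the strand of the gene, ends at the base before the outermost TSS, and has in capitals the words that were searched on both strands. As E2F words these were TTTCCCGC and also TTTGGCGC. The CHR words were TTTGAA and the variant that reads TTCGAA. The CCAAT box was searched by these letters and the GC box as GGGCGG, which can share bases with an E2F word. The windows are chr11:98768865-98769114 (plus strand), chr8:59990390-59990639 (plus strand) and chr1:130256234-130256483 (minus strand) on mm9.
Cdc6 promoter: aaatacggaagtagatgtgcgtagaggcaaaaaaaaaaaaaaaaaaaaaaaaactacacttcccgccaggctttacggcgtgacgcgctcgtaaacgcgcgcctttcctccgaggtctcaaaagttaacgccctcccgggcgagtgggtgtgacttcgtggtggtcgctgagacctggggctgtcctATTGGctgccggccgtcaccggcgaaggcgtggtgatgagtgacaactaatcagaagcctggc
Hmgb2 promoter: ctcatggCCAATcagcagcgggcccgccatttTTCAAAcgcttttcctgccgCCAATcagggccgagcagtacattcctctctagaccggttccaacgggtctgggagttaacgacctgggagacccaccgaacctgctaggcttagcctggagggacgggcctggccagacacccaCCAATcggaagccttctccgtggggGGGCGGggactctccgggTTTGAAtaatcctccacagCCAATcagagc
Mcm6 promoter: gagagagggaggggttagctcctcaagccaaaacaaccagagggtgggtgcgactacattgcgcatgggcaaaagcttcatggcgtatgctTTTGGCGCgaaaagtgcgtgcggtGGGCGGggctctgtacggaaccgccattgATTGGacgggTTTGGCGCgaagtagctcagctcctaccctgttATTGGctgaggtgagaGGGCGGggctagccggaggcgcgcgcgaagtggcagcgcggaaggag

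*Cdc6* encodes the ATPase that loads the MCM helicase onto replication origins. Its peak, chr11:98768924-98769527, had a score of 15.86 and a midpoint 110 bp downstream of the TSS, the shortest distance among the 60 genes. Of all protein-coding genes, 0.636% had a peak at least as near. Neither E2F word occurs in the *Cdc6* sequence printed above, but the peak holds 2 of them past the TSS, with first bases 40 and 212 bp downstream. These are shown with 10 bases on either side, at chr11:98769145-98769172 and chr11:98769317-98769344 (plus strand), together with the E2F word in the *Dlgap5* peak at chr14:48037870-48037897 (minus strand), which starts 195 bp downstream of the TSS.
Cdc6 E2F word at 40: gtagagcggcTTTGGCGCgagttgactt
Cdc6 E2F word at 212: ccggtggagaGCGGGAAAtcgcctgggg
Dlgap5 E2F word at 195: gcggctggcaGCGGGAAAtttcagttcc

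*Mcm6* encodes a subunit of that helicase. Its peak, chr1:130255534-130256415, had a score of 12.94 and its midpoint lay 250 bp downstream of the nearest TSS. Both E2F words in the *Mcm6* promoter fall inside this peak, and they start 159 and 96 bp upstream of the outermost TSS. Each is followed by a CCAAT box or a GC box in the printed sequence. Of the 6 replication genes, these were the only 2 with a peak within 10 kb. *Mcm5*, whose promoter also holds 2 E2F words, was 275 kb from its nearest peak.

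*Hmgb2* encodes a DNA-bending chromatin protein of dividing cells, and of the 5 promoter windows, from 250 bases before to 50 after the outermost TSS, only its own held a CHR word. The peak, chr8:59990129-59990833, had the highest score of the 5 promoter peaks, 22.92, with its midpoint 159 bp upstream. The sequence above holds 4 CCAAT boxes, starting 243, 198, 73 and 11 bp before the TSS, a GC box at 48 bp, and CHR words at 218 and 30 bp.

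*Dlgap5* and *Nusap1* encode microtubule-binding proteins of the mitotic spindle. The *Dlgap5* peak, chr14:48037665-48038106, had a score of 19.22 and lay mostly inside the transcribed region, centred 197 bp downstream of the TSS. The *Nusap1* peak, chr2:119443854-119444648, had a score of 18.08 and covered 2 genes that start head to head. Its midpoint lay 202 bp upstream of the nearest *Nusap1* TSS and 46 bp from the TSS of *Oip5*, which encodes a factor for loading centromeric histone. The first exons of *Nusap1* and *Oip5* overlap in the annotation, so no upstream sequence is shown for *Nusap1*.

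**Figure D2:**
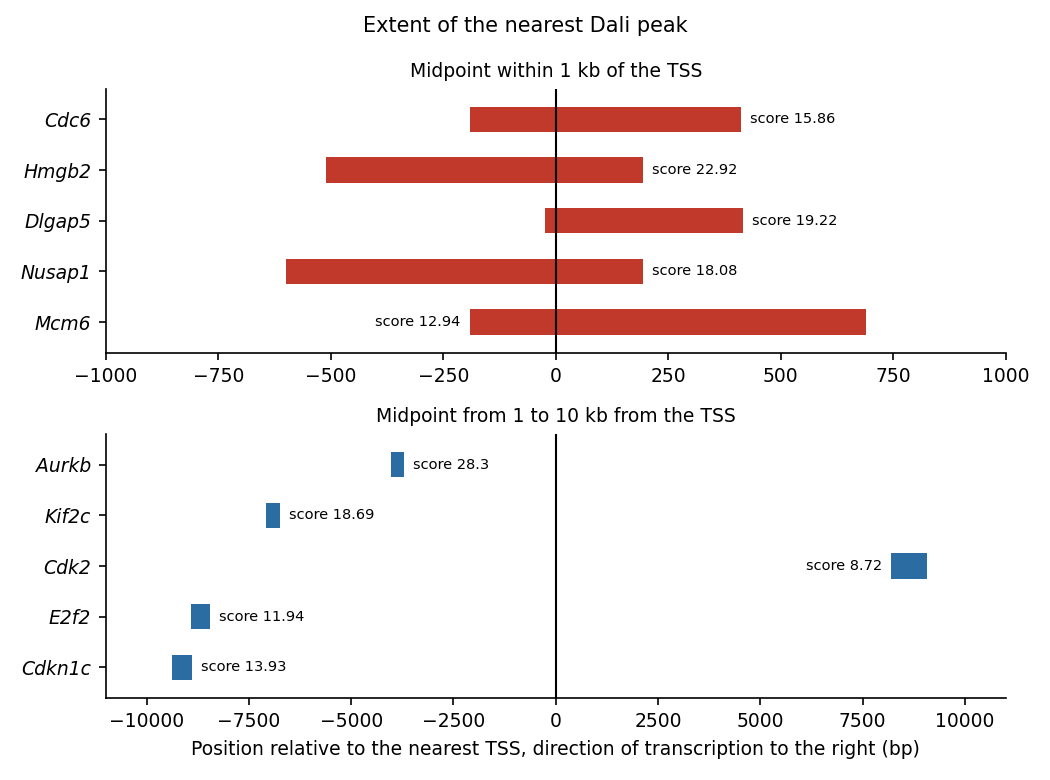
Extent of the nearest peak (bars) relative to the nearest TSS (vertical line at 0; bp, transcription to the right) for the 10 genes with a peak midpoint within 10 kb, with the score of each peak. The 5 peaks of the upper panel all cross the TSS, and in the lower panel only the *Cdk2* peak lies downstream.

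The 5 promoter peaks were alike in base composition. All 5 were rich in GC and CpG by the limits given above, with GC contents from 55.43% to 62.13%, whereas 15.5% of all 1427 peaks and 55.4% of the 359 peaks within 1 kb of any protein-coding TSS were. An E2F word occurred in 3 of the 5, against 2.59% of all peaks and 5.85% of those 359. CCAAT occurred in 5 of 5, against 58.4% and 61.6%, and a CHR word in 3 of 5 (*Hmgb2*, *Nusap1* and *Mcm6*), against 35.3% and 31.2%. In the central 500 bp an E2F word occurred in 2 of the 5, against 2.17% of all peaks and 5.29% of those 359. The median score was 18.08 for the 5 and 19.94 for the 359.

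From 1 to 10 kb, the nearest peak was *Aurkb*'s. *Aurkb* encodes the kinase of the chromosomal passenger complex. Its peak, chr11:68855134-68855431, lay 3.87 kb upstream between genes and had a score of 28.3, the highest among the 10 genes with a peak within 10 kb. It was 298 bp wide and rich in GC and CpG, and its whole sequence is shown for that reason on the plus strand. The capitals mark letters that match a CHR word, and whether they act as a CHR element of *Aurkb* was not tested. A RefSeq table made on the later build GRCm38, used here for gene order alone, lists 7 tRNA genes between *Ctc1* and *Aurkb* and no other gene, and the one next to *Aurkb* is n-TWcca7. GENCODE M1 carries no nuclear tRNA genes, and whether the peak lies on one of them was not tested.
Aurkb peak: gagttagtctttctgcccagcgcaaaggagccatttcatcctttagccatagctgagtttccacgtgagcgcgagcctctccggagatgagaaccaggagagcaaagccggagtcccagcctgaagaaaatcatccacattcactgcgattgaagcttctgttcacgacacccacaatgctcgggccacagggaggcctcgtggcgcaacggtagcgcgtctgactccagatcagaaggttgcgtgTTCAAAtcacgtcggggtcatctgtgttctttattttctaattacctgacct

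The other 4 peaks in this range had lower scores. *Kif2c* encodes a kinesin that depolymerises microtubules, and its peak, chr4:116861980-116862320, lay 6.91 kb upstream with a score of 18.69. *E2f2* encodes an activating E2F factor, and its peak, chr4:135719393-135719867, lay 8.68 kb upstream with a score of 11.94. Both peaks lay between genes, and the kinesin gene and the E2F gene were the closest protein-coding genes to them.

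*Cdkn1c* and *Cdk2* shared their peaks with nearer genes. *Cdkn1c* encodes the imprinted CDK inhibitor p57, and its peak, chr7:150655835-150656346, lay 9.13 kb upstream with a score of 13.93, but only 3.55 kb from *Slc22a18*. *Cdk2* encodes the kinase partner of cyclins E and A, and its peak, chr10:128133036-128133909, lay 8.63 kb downstream with a score of 8.72. That peak sat on the 5′ UTR of *Rab5b*, which encodes an endosomal GTPase, with its midpoint 148 bp from the *Rab5b* TSS.

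A match to the CTCF motif, with at most 1 mismatch on either strand, occurred in 3 of these 5 peaks, those of *Kif2c*, *E2f2* and *Cdkn1c*, against 19.1% of all peaks. It occurred in none of the 5 promoter peaks, against 9.19% of the 359 peaks within 1 kb of any protein-coding TSS. CTCF is the insulator protein that anchors chromatin loops. The matches are shown in capitals, on the strand of each gene, so that the 3 can be compared: *Kif2c* at chr4:116862224-116862320 (minus strand), *E2f2* at chr4:135719445-135719743 (plus strand) and *Cdkn1c* at chr7:150656020-150656120 (minus strand). A match describes the letters and shows no binding.
Kif2c peak: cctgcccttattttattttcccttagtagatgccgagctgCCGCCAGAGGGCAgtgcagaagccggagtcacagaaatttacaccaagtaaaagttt
E2f2 peak: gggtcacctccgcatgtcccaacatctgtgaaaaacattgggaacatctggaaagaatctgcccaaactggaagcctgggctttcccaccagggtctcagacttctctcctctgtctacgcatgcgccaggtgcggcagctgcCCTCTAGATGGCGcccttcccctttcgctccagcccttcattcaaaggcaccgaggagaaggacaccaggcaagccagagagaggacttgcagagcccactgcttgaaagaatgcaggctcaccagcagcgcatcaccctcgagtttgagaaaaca
Cdkn1c peak: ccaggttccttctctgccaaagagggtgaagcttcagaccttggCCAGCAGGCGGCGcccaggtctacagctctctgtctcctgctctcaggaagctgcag

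The study designed CHART-qPCR primers for *E2f2* and *Ube2c*. The *E2f2* pair has 1 site in mm9, chr4:135719527-135719620, which is 94 bp long, lies inside the *E2f2* peak and encloses the CTCF match at chr4:135719588-135719600. The *Ube2c* pair also has 1 site, chr2:164595173-164595237, which is 65 bp long and 193 bp upstream of the TSS. *Ube2c* encodes the ubiquitin-conjugating enzyme of the anaphase promoting complex. No peak of the list lies near that site, and the nearest peak to a *Ube2c* TSS was 1.05 Mb away, in an intron of *Pkig*, with a score of 14.37.

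**Figure D3:**
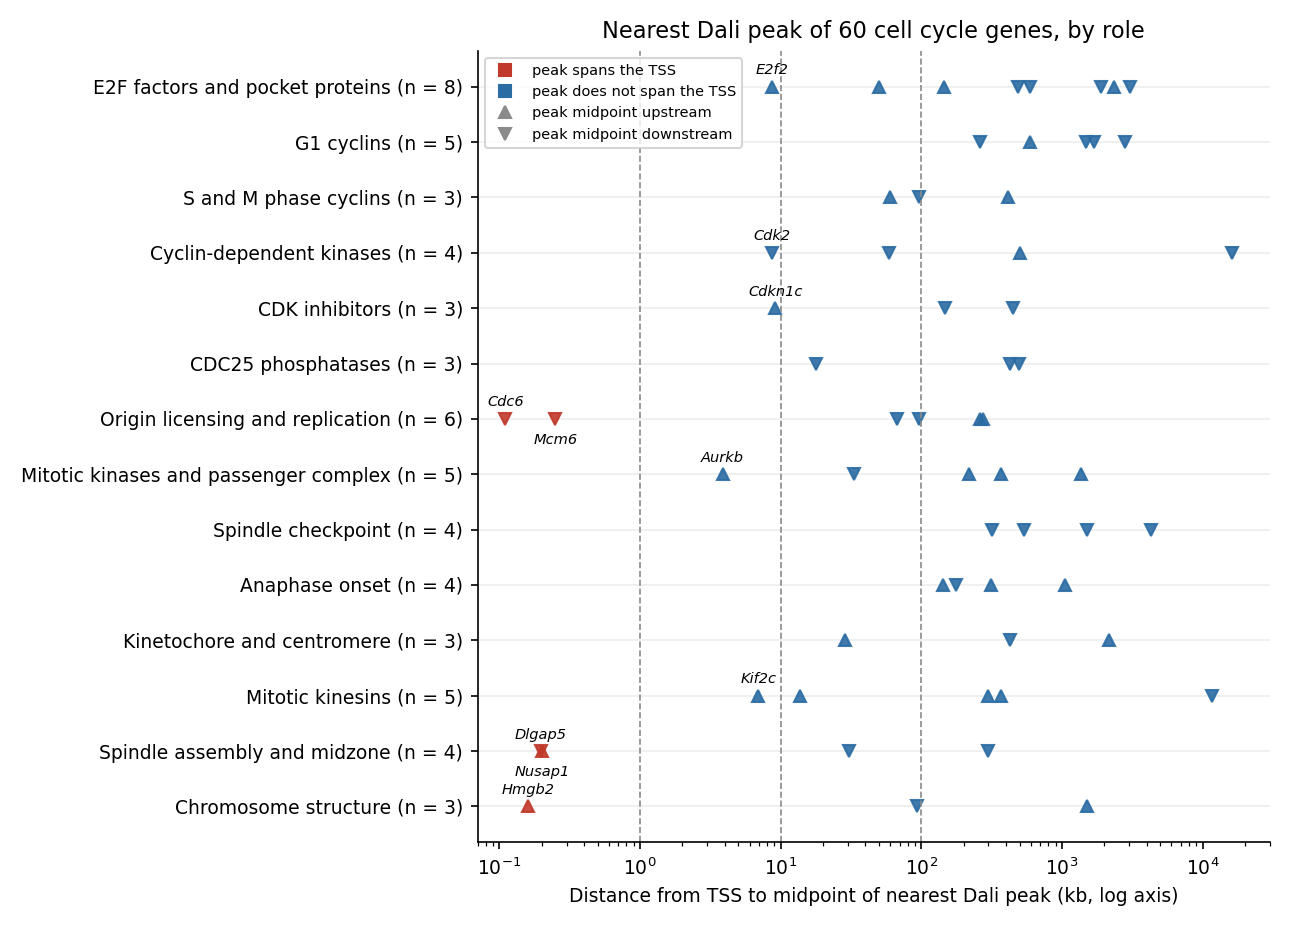
Distance (kb, log axis) from a TSS to the midpoint of the nearest peak for each of the 60 genes (triangles), grouped by role, with dashed lines at 1, 10 and 100 kb. The 5 genes whose peak spans the TSS fall in 3 groups, and the G1 cyclins, the spindle checkpoint and the anaphase onset group have no gene within 100 kb.

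By role, 11 of the 14 groups had a gene with a peak within 100 kb. With 18.4% of all protein-coding genes within that distance, groups of 3 to 8 genes can hold 1 at that share. The number of groups was therefore not read as a result. Among the 8 E2F factors and pocket proteins, 2 had a peak within 100 kb. Besides *E2f2*, this was *Rbl2*, which encodes the pocket protein p130 of quiescent cells, with a peak 50.1 kb upstream in an intron of *Chd9* (score 11.51). *Rbl1*, which encodes the related pocket protein p107, lay just outside at 145 kb. The activator *E2f1* was 490 kb from a peak, *Rb1* 587 kb, *E2f3* 2.33 Mb, and the atypical repressors *E2f8* and *E2f7* were 1.88 and 3.04 Mb away.

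None of the 5 G1 cyclins, which activate CDKs before S phase, had a peak within 100 kb, a count that does not set so small a group apart from the 18.4% of all protein-coding genes. Their distances ran from 262 kb for *Ccne2* to 2.79 Mb for *Ccne1*. Of the 3 cyclins of S and M phase, *Ccnb1*, which encodes cyclin B1, had a peak 59.7 kb upstream between genes (score 25.6). *Ccna2*, which encodes cyclin A2, had one 96.2 kb downstream on the 5′ UTR of *Anxa5* (score 16.55), and *Ccnb2* was 413 kb from a peak.

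The 4 CDKs ranged most widely. After *Cdk2*, the G1 kinase gene *Cdk4* had a peak 59 kb downstream between genes (score 25.71), which lay 1.72 kb from *Os9*. *Cdk1*, which encodes the kinase of mitotic entry, was 506 kb from a peak. *Cdk6*, the other G1 kinase gene, was the farthest of all 60 genes at 16.2 Mb, and 99.1% of all protein-coding genes had a peak at least as near.

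CDK activity is checked by inhibitors and released by CDC25 phosphatases. The inhibitor genes *Cdkn1a* (p21) and *Cdkn1b* (p27) were 148 and 449 kb from a peak, in contrast to *Cdkn1c* at 9.13 kb. *Cdc25b* had a peak 17.8 kb downstream, between genes and nearer to 2 other genes, with a score of 15.33 and an E2F word in its sequence. *Cdc25a* and *Cdc25c* were 429 and 492 kb away.

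Of the 6 replication genes, 4 had a peak within 100 kb, and of the 4 genes for spindle assembly and the midzone, 3 did. The share was 18.4% of all protein-coding genes and 22.9% of those with a promoter rich in GC and CpG. Both groups are small, and neither count was tested. *Mcm2*, another helicase subunit gene, had a peak 67.1 kb downstream between genes (score 9.79). *Cdt1*, whose product acts with CDC6 in helicase loading, had one 96.9 kb downstream in an intron of *Cbfa2t3* (score 19.99). *Pcna*, which encodes the sliding clamp, was 262 kb from a peak with a score of 42.1.

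Among the 5 genes for mitotic kinases and the passenger complex, *Birc5*, which encodes survivin, followed *Aurkb* with a peak 33.3 kb downstream in an intron of *Gm11725* (score 9.83). *Plk1*, *Incenp* and *Aurka* were 219 kb, 367 kb and 1.36 Mb from a peak. The 3 passenger complex genes *Aurkb*, *Birc5* and *Incenp* thus did not lie at like distances from a peak.

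The spindle checkpoint, which delays anaphase until chromosomes are attached, had no gene within 100 kb among its 4: *Bub1* was 320 kb, *Bub1b* 533 kb, *Ttk* 1.49 Mb and *Mad2l1* 4.26 Mb from a peak. The same held for the 4 genes of anaphase onset, and with 18.4% of all protein-coding genes within 100 kb neither count sets its group apart. *Pttg1*, which encodes securin, was the first gene outside the limit at 144 kb, followed by *Cdc20* at 176 kb, the separase gene *Espl1* at 312 kb and *Ube2c*. The peaks nearest to *Espl1* and *Bub1* had the highest scores among the nearest peaks of the 60 genes, 57.41 and 52.93.

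In the groups that build the spindle and the kinetochore, *Kif11*, which encodes the kinesin that pushes spindle poles apart, had a peak 13.7 kb upstream between genes (score 22.33). *Cenpa*, which encodes the centromeric histone, had one 28.6 kb upstream with a score of 22.49 and a CTCF match. *Prc1*, which encodes a bundler of midzone microtubules, had one 30.8 kb downstream on the 5′ UTR of *Hddc3*, with a score of 12.83 and an E2F word.

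The other genes of these groups lay farther out. *Tpx2* was 300 kb from a peak, the kinesin genes *Kif23* and *Kif20a* 297 and 365 kb, and *Cenpe* and *Cenpf* 429 kb and 2.15 Mb. *Kif4*, the only one of the 60 on the X chromosome, which holds 16 of the 1427 peaks, was 11.7 Mb away. Of the chromosome structure genes, *Top2a* had a peak 92.9 kb downstream and the proliferation marker gene *Mki67* one 1.51 Mb upstream.

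Nearness did not make a gene the nearest of its peak. The 60 genes had 57 distinct nearest peaks, and 3 peaks were each nearest to 2 of them: *Cdc6* and *Top2a*, *Kif20a* and *Cdc25c*, and *Cdkn1c* and *Ccnd1*. The cell cycle gene was the protein-coding gene closest to its peak for 7 of the 10 genes within 10 kb, but for 2 of the 12 genes from 10 to 100 kb, *Kif11* and *Rbl2*, and for none farther out. Of the 22 nearest peaks within 100 kb, counted once for each gene, 5 lay on the 5′ UTR of the gene itself, 4 on the 5′ UTR of another gene, 3 in introns and 10 between genes. The midpoint lay upstream for 10 genes and downstream for 12. More than 1 peak within 100 kb was found for 6 genes, with 3 peaks at *E2f2*.

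The study tied peaks to genes through regulatory regions that reach from 5 kb upstream to 1 kb downstream of a TSS and extend to neighbouring genes by up to 1 Mb. By that rule 11 of the 60 genes (18.3%) had a peak, against 9.12% of all protein-coding genes. They were the 5 genes with promoter peaks, *Aurkb*, *Kif2c*, *E2f2*, *Kif11*, *Rbl2* and *Pttg1*. Of the 22 genes with a peak within 100 kb, 12 had none in their region, *Cdk2* and *Cdkn1c* among them. Among all protein-coding genes with a promoter rich in GC and CpG, the share with a peak in their region was 11.9%. Among the 48 cell cycle genes with such a promoter it was 16.7%. Without the 6 genes the study names, 6 of 54 (11.1%) had a peak in their region, beside 9.12% of all protein-coding genes. The 11.9% is not a like share for these 54, which were not limited to promoters rich in GC and CpG.

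**Figure D4:**
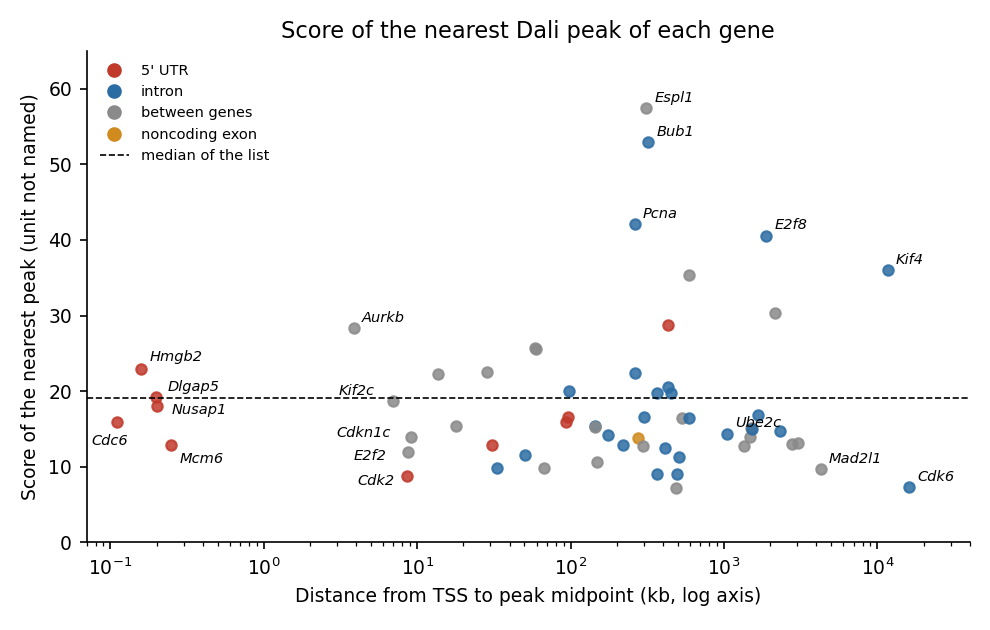
Score of the nearest peak (vertical axis, unit not named in the sources) against its distance from the TSS (horizontal axis, kb, log scale) for each of the 60 genes, coloured by where the peak lies; the dashed line is the median score of the list, 19.11. Peaks within 100 kb reach 28.3, and the 2 highest scores belong to *Espl1* and *Bub1*, over 300 kb away.

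The highest score among the peaks near these genes was that of *Aurkb*, which ranked 298 among the 1427. The 21 distinct peaks within 100 kb had scores from 8.72 to 28.3 with a median of 16.55, against 6.89 to 108.2 with a median of 19.11 for all 1427. The score was at or above that median for 3 of the 10 genes within 10 kb (*Hmgb2*, *Dlgap5* and *Aurkb*) and for 8 of the 22 within 100 kb. The longest exact match between one of these 21 peaks and any of the 10 capture oligonucleotides was 8 to 12 bases with a median of 9, and over all peaks it was 7 to 16 bases with a median of 10.

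Taken as 1 set, the promoters of the 60 genes held E2F and CHR words more often than promoters at large. An E2F word occurred in 10 of 60 (16.7%), against 2.01% of all protein-coding genes, and a CHR word in 26 of 60 (43.3%), against 17.7%. No promoter held both, which 0.304% of all did and 7 of 124 other cell cycle genes (5.65%). In those 124 an E2F word occurred in 16.1% of promoters, close to the share in the 60, and a CHR word in 26.6%. CCAAT occurred in 68.3% against 37.9%, and the GC box in 78.3% against 44%.

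Words in these promoters were also counted with and without a near peak. Of the 10 genes with a peak within 10 kb, 4 had an E2F word (*Cdc6*, *Mcm6*, *Cdk2* and *E2f2*) and 2 a CHR word (*Hmgb2* and *Aurkb*). Of the 50 others, 6 (12%) had an E2F word and 24 (48%) a CHR word. Neither difference was tested, since genes are not replicates and the counts are small. Over all protein-coding genes, 17.7% of promoters held a CHR word. In the peaks themselves, CHR words occurred in 6 of the 10 peaks within 10 kb (60%). This compares with 49.1% of the 57 nearest peaks of the 60 genes, which include those 10, and 35.3% of all peaks. The 10 peaks were 298 to 882 bp wide and the promoter windows 300 bases, so the 2 counts are not alike.

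**Figure D5:**
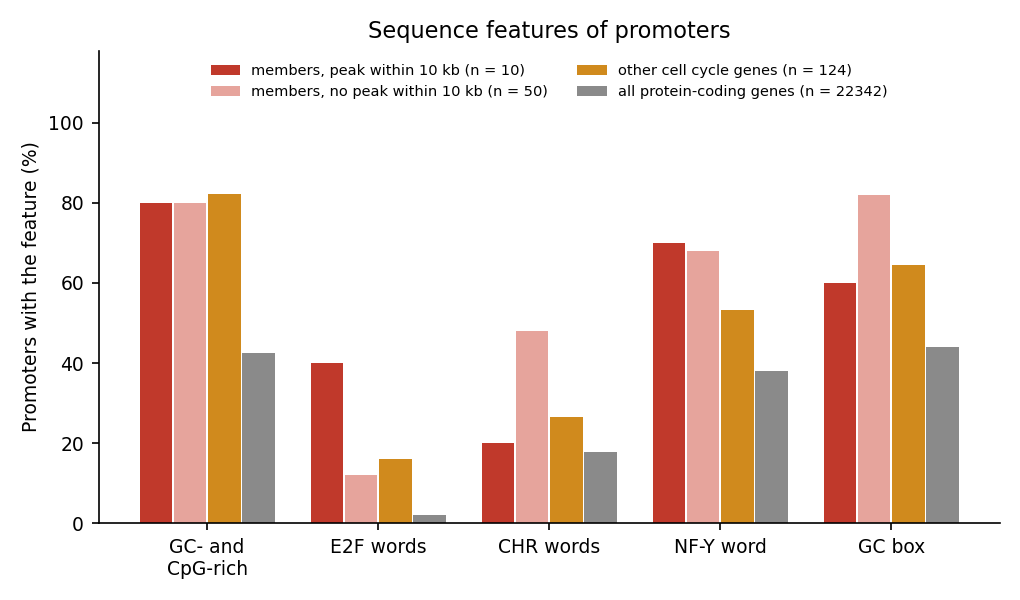
Percentage of promoters (250 bases before to 50 after the outermost TSS) that are rich in GC and CpG or hold an E2F word, a CHR word, an NF-Y word (CCAAT) or a GC box, for 10 of the 60 genes with a peak within 10 kb, the 50 others, 124 other cell cycle genes and all 22342 protein-coding genes. E2F words stand at 40% in the 10 genes and 12% in the 50, and CHR words at 20% and 48%.

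A second list, 124 genes of textbook cell cycle complexes, put the 60 beside the rest of the pathway. In it 5 genes (4.03%) had a peak within 1 kb, 6 (4.84%) within 10 kb and 26 (21%) within 100 kb, at a median distance of 458.8 kb. In this list 82.3% of promoters were rich in GC and CpG. For its 102 genes with such promoters the shares were 3.92%, 4.9% and 23.5% and the median distance 431.6 kb. Among all protein-coding genes with such promoters the shares were 2.96%, 5.19% and 22.9% and the median distance 361.5 kb. At 10 and 100 kb the second list thus lay close to them. The 5 promoter peaks belonged to *Orc4*, a subunit of the origin recognition complex (109 bp), *Mad1l1*, a spindle checkpoint gene (153 bp), the replisome genes *Gins2* (161 bp), *Rpa2* (180 bp) and *Timeless* (689 bp). The sixth gene, *Fzr1*, an activator of the anaphase promoting complex, had one 1.28 kb downstream.

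In the second list, origin licensing had 1 of 11 genes within 1 kb and the replisome 3 of 22, beside 2 of the 6 replication genes among the 60 and 1.88% of all protein-coding genes. None lay within 10 kb among the 15 cohesin and condensin genes, the 14 checkpoint genes, the 16 other mitotic kinesins and kinases and the 11 DREAM and MuvB factors, which form the complexes that bind CHR elements. At 3.68% of all protein-coding genes, groups of this size need not hold any. Some peaks served both lists: the *Kif2c* peak was also the nearest to *Plk3* (55.6 kb), the *Ccnb1* peak to *Cenph* (70.4 kb), and the distant *Cenpf* peak lay 18.1 kb from *Nek2*.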

How the data were processed

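Paired-end reads of the 3 pull-downs had been aligned by the authors with Bowtie (mm9) and searched for peaks with MACS2 in comparison with input DNA and with a *lacZ* control pull-down, and only peaks common to both comparisons were kept. Both tools are named in the submitters' processing notes, with versions not given in the sources used here. The authors deposited 1 pooled list with a score for each peak, whose unit is not named. It was read as given, with positions counted from 1. Distances ran from peak midpoints to TSSs of protein-coding transcripts in GENCODE M1. Exact words were counted on both strands in the mm9 sequence. No value exists per pull-down, so depth and replicate error are unknown, and shares were set beside all protein-coding genes with no test. Genes and gene lists were chosen with earlier results of these data known. Named in full were genes with a peak within 10 kb, then those within 100 kb, *E2f2* and *Ube2c* for their primers, and the 3 farthest genes, with the others added by role group. Values are for Python 3.11.15, numpy 2.4.6, scipy 1.17.1 and matplotlib 3.10.9, and the distance and word functions were tested on simulated data. Input and *lacZ* libraries were not analysed here.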

Additional observations from a re-analysis of the deposited data

How the results depend on the processing

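The choice that changed the values most was the score threshold. With only the 714 peaks at or above the median score, the share of the 60 genes within 1 kb was 3.33% (1.03% of all protein-coding genes), within 10 kb 5% (1.92% of all) and within 100 kb 18.3% (10.5% of all), and the median distance was 522.8 kb. With a fixed distance of 100 kb in place of the regulatory region, 36.7% had a peak. Taking peak edges, the outermost TSS, TSSs of every biotype, a score of at least 10 or merged peaks left the share within 1 kb at 8.33% in each case. An E2F word occurred in 23.8% of the 21 peaks within 100 kb and in the central 500 bp of 9.52% of them. Leaving out the 6 genes that the study names was chosen after seeing the data. No paired analysis was possible because the 3 pull-downs were pooled in the list, and for the same reason none of them could be left out.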
